A study of Homo sapiens with 12 samples.

Results

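The 48 genes described here encode proteins that build ribosomes in the nucleolus, with a pair of polyamine-synthesis enzymes, and were chosen by their gene symbol in the count table, which lists 24302 features. All 48 were found and all 48 had enough reads to be tested. RNA was sequenced from KYSE150 cells, a human line grown from a squamous carcinoma of the esophagus. The 12 libraries fall into 4 groups of 3, and cells of every group carried a GFP construct. In the Mut_IDR3 group GFP was fused to TFAP2β with an altered IDR3, in the dIDR3 group (ΔIDR3 in the labels, Δ being the usual sign of a deletion) to TFAP2β without IDR3, in the WT group to TFAP2β of normal sequence, and in the GFP group GFP stood alone. TFAP2β is the AP-2 family transcription factor encoded by TFAP2B, IDR stands for intrinsically disordered region, and the study describes both altered forms as deficient in phase separation. The promoter of the constructs, how they entered the cells and whether each group was 1 clone are not given in the labels.

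Ribosomes are assembled mainly in the nucleolus, where RNA polymerase I copies the ribosomal DNA into a long precursor. Small nucleolar ribonucleoproteins (snoRNPs) guide the chemical modification of that precursor, and large groups of assembly factors fold it, cut it and join it to ribosomal proteins to form the small and the large subunit. Many of these genes are known as targets of the transcription factor MYC, which binds with its partner MAX to the E-box letters CACGTG. Ornithine decarboxylase (ODC1) and spermidine synthase (SRM), enzymes of polyamine synthesis, are classic MYC targets too, and AP-2 factors are known to bind GCCNNNGGC.

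Promoter windows from RefSeq (GRCh38.p14), 250 bases before to 50 after an annotated start, were found for 41 of the 48 genes in 51 windows. Searched on both strands, CACGTG stood in a window of 20 of the 41 genes (48.8%), against 12.7% of the 9946 tested genes with a window and 8.78% of all 27305 genes in the table. GCCNNNGGC stood in 15 of the 41 (36.6%), against 38.4% of the tested genes. A match describes letters in the window and not a site bound by a factor. The stretches below were picked from genes with CACGTG in a window: 6 have it within 30 bases of the start, and SRM has both motifs farther upstream. The 21 of the 41 genes without CACGTG, HEATR1, NPM1, NCL and NOP56 among them, are not shown. Each is written 5′ to 3′ on the strand of its gene. Capitals mark CACGTG and GCCNNNGGC, which overlap upstream of the ODC1 start and run together there. The first 6 stretches hold 60 bases before and 30 after the start, and that of SRM the 220 bases before it.
NAT10: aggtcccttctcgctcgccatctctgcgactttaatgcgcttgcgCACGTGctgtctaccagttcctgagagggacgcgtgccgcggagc
NOC3L: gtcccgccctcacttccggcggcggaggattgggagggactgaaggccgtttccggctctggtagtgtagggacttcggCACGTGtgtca
ODC1: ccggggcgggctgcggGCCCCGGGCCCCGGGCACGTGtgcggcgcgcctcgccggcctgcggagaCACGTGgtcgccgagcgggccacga
PES1: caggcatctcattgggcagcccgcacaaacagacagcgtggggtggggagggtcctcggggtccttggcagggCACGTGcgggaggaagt
UTP20: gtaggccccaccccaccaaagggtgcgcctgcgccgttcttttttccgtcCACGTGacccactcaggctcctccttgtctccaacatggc
WDR43: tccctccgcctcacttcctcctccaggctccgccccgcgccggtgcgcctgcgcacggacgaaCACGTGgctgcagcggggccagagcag
SRM: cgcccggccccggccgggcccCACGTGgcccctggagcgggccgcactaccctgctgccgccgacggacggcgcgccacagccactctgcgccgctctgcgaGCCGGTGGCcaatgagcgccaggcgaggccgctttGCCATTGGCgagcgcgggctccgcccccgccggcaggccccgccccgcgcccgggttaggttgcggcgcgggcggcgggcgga
Counted from the start as +1, the first base of CACGTG lay at +4 in WDR43, +14 in PES1 and +20 in NOC3L, and at -10 in UTP20, -15 in NAT10 and -199 in SRM. In the stretch shown, ODC1 had CACGTG at -29 and +6 and GCCNNNGGC at -44 and -37, while SRM had GCCNNNGGC at -118 and -83. A further ODC1 window, chr2:10448278-10448577, belongs to another annotated start. It had no CACGTG, and GCCNNNGGC at -224. The NAT10 window is chr11:34105569-34105658 on the plus strand, that of NOC3L chr10:94362910-94362999 on the minus strand and that of ODC1 chr2:10447983-10448072 on the minus strand. PES1 is read from chr22:30591881-30591970 on the minus strand, UTP20 from chr12:101280045-101280134 on the plus strand, WDR43 from chr2:28894607-28894696 on the plus strand and SRM from chr1:11060019-11060238 on the minus strand.

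The libraries held 30.7 M to 43.5 M counts, of which the 48 genes took 0.819 to 0.834% with Mut_IDR3, 0.966 to 0.997% with dIDR3, 0.679 to 0.71% with WT and 0.803 to 0.817% with GFP. CPM is a gene's count relative to its library's TMM-scaled total, ± gives the SD of 3 libraries, and SE the standard error of the fitted log2 fold change. Nothing in the labels ties replicates to separate cultures, so the p-values cover the spread of these samples alone, and that spread may be technical. TFAP2B stood at 702 ± 25.9 CPM with Mut_IDR3, 704 ± 62.8 CPM with dIDR3, 280.3 ± 45.6 CPM with WT and 0.124 ± 0.142 CPM with GFP, so both altered forms held more TFAP2B RNA than WT, and a difference between Mut_IDR3 and dIDR3 did not pass the test (log2 fold change -0.01, SE 0.12, adjusted p = 0.989). All 8 squamous markers were detected (summed 4865 to 8555 CPM, highest with WT and lowest with dIDR3), while the sums of leukocyte, fibroblast and endothelial markers stayed at or under 1.8 CPM in every library, with PTPRC, PECAM1 and KDR at 0 counts. Mitochondrially encoded RNA took 8.36 ± 0.235% of counts with Mut_IDR3, 7.72 ± 0.0634% with dIDR3, 5.75 ± 0.356% with WT and 10.3 ± 0.406% with GFP. Library pairs within WT differed more (chi-square per degree of freedom 17.3 to 36.5) than pairs within the other groups (8.50 to 14.4). WT replicate 2 was the lowest of the 12 libraries for POLR1A, POLR1B, UBTF, NOP58, NOP14, PES1, RRS1, MRTO4, PPAN and RRP1B. The part of these measures in the results was not tested.

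The dIDR3 libraries held the most RNA of these genes. Summed over the 48, the level was 8204 ± 25.3 CPM with Mut_IDR3, 9646 ± 115 CPM with dIDR3, 7223 ± 141 CPM with WT and 7940 ± 30.4 CPM with GFP, and in this sum no library of one group overlapped another group. The sum weighs abundant genes most, among them NPM1 and NCL, with log2 fold changes of -0.605 and -0.524 for WT against GFP. Without NPM1 and NCL the WT sum would not lie below that of GFP. The dIDR3 mean was the highest of the 4 groups for 35 of the 48 genes and the lowest for 0, while the lowest mean was that of WT for 27 genes, GFP for 19 and Mut_IDR3 for 2. The median over the 48 genes of the log2 ratio to the GFP mean was 0.08, 0.09 and 0.09 in the Mut_IDR3 libraries, 0.29, 0.33 and 0.27 in the dIDR3 libraries, and -0.02, -0.13 and -0.04 in the WT libraries. In the GFP libraries it was 0.016, 0.011 and -0.017, so by this median WT replicate 1 (-0.018) lay next to GFP replicate 3. All are shares of the RNA sequenced: in bulk samples, fewer cells that express a gene and less RNA of it per cell cannot be told apart.

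**Figure D1:**
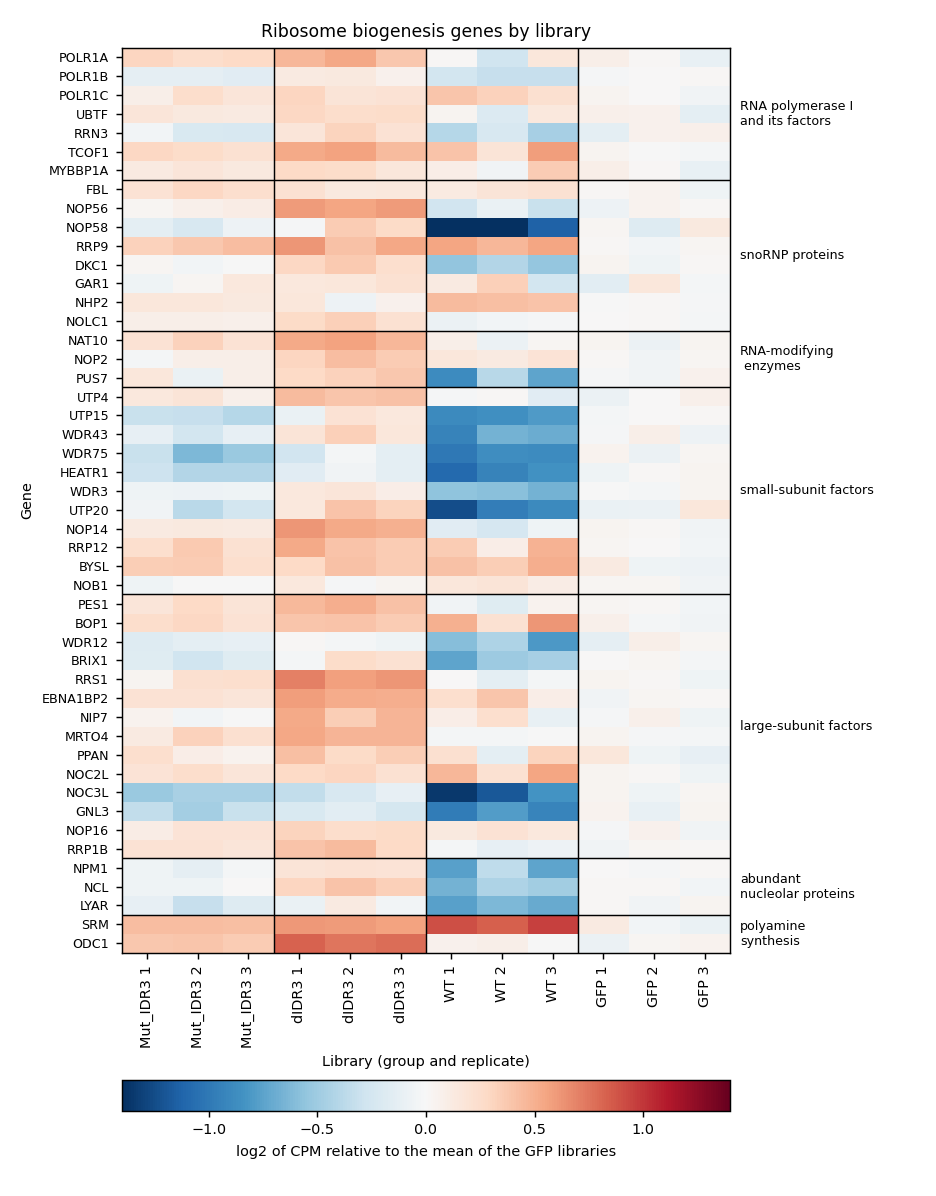
Each row is 1 of the 48 genes, grouped by role, and each column 1 of the 12 libraries; the colour is the log2 ratio of CPM to the mean of the GFP libraries, red higher and blue lower. The dIDR3 columns are red in most rows (library medians 0.27 to 0.33), while the WT columns hold both the deepest blue rows (NOP58, NOC3L, UTP20) and the deepest red (SRM).

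Against GFP, 33 of the 48 genes were called higher with dIDR3 (15.6% of all 14792 tested genes were) and 1, GNL3, was called lower (13.4% of all were), by edgeR's quasi-likelihood test at an adjusted p under 0.05. The median log2 fold change of the 48 was 0.29, against -0.02 over all tested genes, and 43 of 48 values were positive. Most changes were small: 3 genes, ODC1, RRS1 and SRM, rose at least 1.5-fold (2.72% of all genes did), and 0 fell that far in edgeR, at an unadjusted p under 0.05 or in DESeq2 (4.86% of all genes did). Of the 33 calls, 23 held whichever library was left out, and those of POLR1C, UBTF, RRN3, MYBBP1A, FBL, PUS7, WDR43, WDR3, PPAN and NOC2L were lost without at least 1 library. GNL3 lost its call without dIDR3 replicate 1, dIDR3 replicate 3, GFP replicate 1 or GFP replicate 3, and without WT replicate 3 NOC3L was called lower too.

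With Mut_IDR3, 16 genes were called higher than with GFP (11.2% of all tested genes were) and 6 lower (9.85% of all). The median was 0.11, against -0.01 over all genes, and 0 of the 48 reached 1.5-fold in either direction in the edgeR fit, with 0 at an unadjusted p under 0.05 and 0 by DESeq2 at that size (1.13% of all genes rose and 2.37% fell that far). The higher count leaned on single libraries. It was 10, 4 or 9 without Mut_IDR3 replicate 1, 2 or 3, and 9, 7 or 5 without GFP replicate 1, 2 or 3. SRM, ODC1, RRP9 and FBL kept a higher call in all of the fits that left out 1 library, and with the GC trend removed 3 genes were called higher (7.97% of all) and 4 lower (7.08% of all).

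Set directly against dIDR3, whose TFAP2B RNA was at a like level, Mut_IDR3 had 26 of the 48 genes lower (5.24% of all tested genes were lower) and 0 higher (5.54% of all were higher). No gene was higher at an unadjusted p under 0.05 in edgeR, 1 was in DESeq2, and DESeq2 called 0 at the adjusted threshold. The median difference was -0.25, against -0.01 over all genes, and 46 of 48 values were negative. None of the 26 reached 1.5-fold (1.42% of all genes were at least that far higher and 0.629% lower). The count of lower genes was 17 without dIDR3 replicate 2. With the GC trend removed it was 30 (6.86% of all), with 0 called higher (7.44% of all).

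With WT, the 48 genes went both ways against GFP: 14 were called higher (27.7% of all tested genes were) and 19 lower (27.1% of all). The median was -0.05, against -0.01 over all genes. The falls were the larger changes, since 13 genes fell at least 1.5-fold (16.2% of all genes) and SRM alone rose that far (10.1% of all). All 19 lower calls held whichever library was left out, and of the higher calls those of NOP2 and NOB1 did not. The split depended on GC content, as described after the roles: with the GC trend removed, 4 of the 48 were called higher (23.8% of all) and 27 lower (24.2% of all).

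Both altered forms held more of this RNA than WT. With dIDR3, 33 genes were called higher than with WT (27.2% of all tested genes were) and 2, SRM and NHP2, lower (25.0% of all), with a median of 0.50 against 0.03 over all genes. At least 1.5-fold higher were 21 of the 48 (13.2% of all genes) and 0 were that far lower in edgeR, also at an unadjusted p under 0.05 and in DESeq2 (10.4% of all genes). With Mut_IDR3, 29 genes were called higher than with WT (23.2% of all) and 5 lower (20.9% of all), with a median of 0.23 against 0.03 over all genes. Only NOP58, PUS7, WDR43, UTP20 and NOC3L were at least 1.5-fold higher with Mut_IDR3 (9.43% of all genes), and 0 were that far lower in edgeR, at an unadjusted p under 0.05 or in DESeq2 (7.65% of all genes). The 5 genes lower with Mut_IDR3 than with WT were SRM, NHP2, NOB1, BOP1 and NOC2L, of which 3 were called without WT replicate 1, WT replicate 3 or Mut_IDR3 replicate 3. Without WT replicate 2, 4 genes, BOP1 and NOC2L among them, were lower with dIDR3 than with WT. The comparisons share the WT or the GFP libraries, and TFAP2B RNA differed between WT and both altered forms, so an altered IDR3 and a higher construct level cannot be told apart in them.

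**Figure D2:**
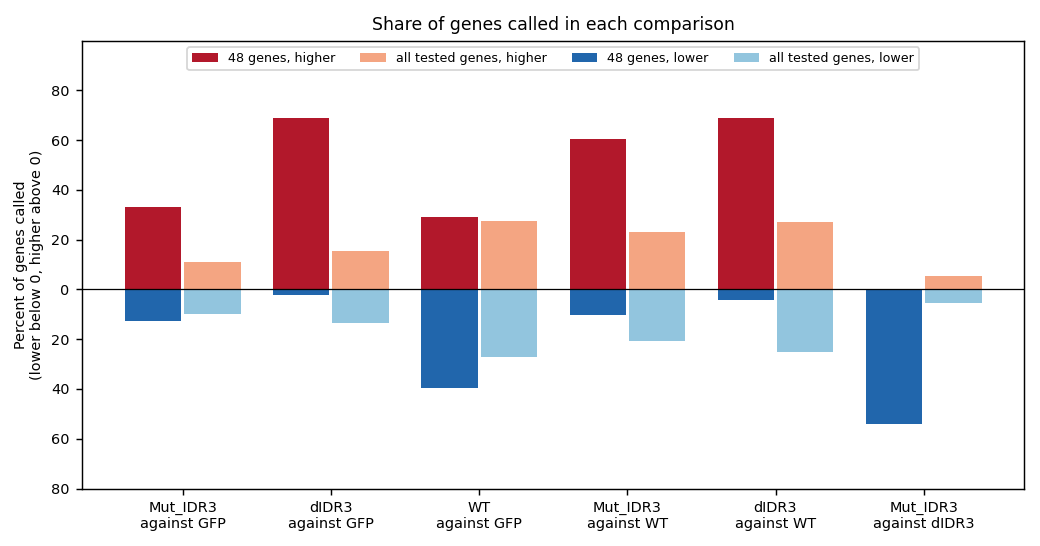
Bars show the percent of the 48 genes (dark) and of all 14792 tested genes (light) called higher (above 0) or lower (below 0) in each of the 6 comparisons. The 48 genes stand far above the light bars on the higher side for dIDR3 against GFP (33 genes) and on the lower side for Mut_IDR3 against dIDR3 (26 genes), while for WT against GFP the dark and light bars on the higher side are of like height.

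Of the genes for RNA polymerase I and its factors, 6 of 7 were called higher with dIDR3 than with GFP (15.6% of all tested genes were) and the other was not called, with a median log2 fold change of 0.24. TCOF1, which encodes treacle, a nucleolar scaffold for ribosomal DNA transcription, had 245, 240.2 and 232 CPM in the Mut_IDR3 libraries, 289.7, 296 and 274 CPM in dIDR3, 264, 228 and 300.3 CPM in WT and 206, 200.4 and 196 CPM in GFP. All construct libraries exceeded all GFP libraries, and WT replicate 2 was the lowest of them. Against GFP, TCOF1 rose with Mut_IDR3 (log2 fold change 0.25, SE 0.07, adjusted p = 0.028), dIDR3 (log2 fold change 0.51, SE 0.07, adjusted p = 1.67e-04) and WT (log2 fold change 0.40, SE 0.07, adjusted p = 3.72e-04), and with the GC trend removed the Mut_IDR3 and WT values were both 0.10 and not called. POLR1A, the largest subunit of the polymerase, rose with dIDR3 (log2 fold change 0.47, SE 0.09, adjusted p = 0.00163), and its WT libraries (61.4, 49.7 and 67.6 CPM) overlapped the GFP libraries (64.3, 61.1 and 56.4 CPM).

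POLR1B, the other large catalytic subunit, had 110.2, 110.5 and 108 CPM in the Mut_IDR3 libraries, 132, 133 and 125 CPM in dIDR3, 101, 96.5 and 96.7 CPM in WT and 119, 121 and 122 CPM in GFP. The WT libraries were the lowest and the dIDR3 libraries the highest, with Mut_IDR3 between WT and GFP and no overlap. Its fall with WT against GFP was a log2 fold change of -0.30 (SE 0.05, with adjusted p = 5.69e-05), or -0.17 and still called with the GC trend removed, and Mut_IDR3 was lower than dIDR3 by a log2 fold change of -0.24 (SE 0.05, with adjusted p = 0.0041). RRN3, which brings the polymerase to the ribosomal DNA promoter and has near-identical pseudogenes that may share its reads, had 80.7, 71.4 and 70.8 CPM in the Mut_IDR3 libraries, 92.8, 103 and 95.5 CPM in dIDR3, 62.8, 70.5 and 59.8 CPM in WT and 75.1, 86.0 and 87.0 CPM in GFP. Its WT libraries lay below all others and its dIDR3 libraries above, while those of Mut_IDR3 and GFP overlapped. Against GFP it fell with WT (log2 fold change -0.36, SE 0.08, adjusted p = 0.00115), a difference that was 0.01 with the GC trend removed, and rose with dIDR3 (log2 fold change 0.23, SE 0.08, adjusted p = 0.0388). POLR1C, shared with RNA polymerase III, rose with WT (log2 fold change 0.32, SE 0.08, adjusted p = 0.0022) and dIDR3 (log2 fold change 0.23, SE 0.08, adjusted p = 0.0323). UBTF, which binds the ribosomal DNA, and MYBBP1A, a nucleolar partner of the polymerase, were called higher with dIDR3 than with GFP, at log2 fold changes of 0.26 and 0.23. Their Mut_IDR3 values, 0.15 and 0.14, were not called, and the direct test of Mut_IDR3 against dIDR3 did not pass either (adjusted p = 0.376 for UBTF and 0.53 for MYBBP1A).

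Of the snoRNP proteins, 5 of 8 rose with dIDR3 against GFP (15.6% of all tested genes did) and the other 3 were not called. With WT, 3 of 8 were called higher than with GFP and 3 lower, near the shares of all genes (27.7% and 27.1%). In the box C/D particle, which methylates ribosomal RNA, NOP56 and NOP58 are the scaffold proteins and FBL is the methyltransferase. NOP58 (ENSG00000055044, chromosome 2, 202265716 to 202303666, GRCh38) had 53.7, 50.5 and 56.2 CPM in the Mut_IDR3 libraries, 58.4, 75.7 and 71.2 CPM in dIDR3, 21.4, 20.3 and 26.6 CPM in WT and 60.4, 51.9 and 64.9 CPM in GFP. The WT libraries lay far below all others, and the GFP libraries overlapped those of both altered forms. The fall with WT was a log2 fold change of -1.37 (SE 0.12, with adjusted p = 2.11e-07), the most negative value among the 48 genes, and it was -0.97 with the GC trend removed. NOP58 was higher than in WT with dIDR3 (log2 fold change 1.58, SE 0.12, adjusted p = 5.85e-08) and with Mut_IDR3 (log2 fold change 1.23, SE 0.12, adjusted p = 1.17e-06).

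NOP56 (chromosome 20, 2652145 to 2658393) had 162, 166 and 169.7 CPM in the Mut_IDR3 libraries, 240.1, 233 and 239 CPM in dIDR3, 132, 148 and 128 CPM in WT and 151, 164 and 160.2 CPM in GFP. All dIDR3 libraries stood well above the other 9, among which the Mut_IDR3 and GFP libraries overlapped. Its rise with dIDR3 was a log2 fold change of 0.58 (SE 0.06, with adjusted p = 4.19e-06) against GFP, and Mut_IDR3 was lower than dIDR3 by a log2 fold change of -0.52 (SE 0.06, with adjusted p = 7.94e-05), the smallest adjusted p among the 48 in that comparison. With WT, NOP56 fell (log2 fold change -0.22, SE 0.06, adjusted p = 0.00385), which was -0.43 with the GC trend removed. FBL rose in all 3 construct groups against GFP, by 0.24 on the log2 scale with Mut_IDR3, 0.17 with dIDR3 and 0.17 with WT, and with the GC trend removed these were 0.10, 0.06 and -0.08, none of them called.

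In the box H/ACA particle, which turns uridine into pseudouridine, the enzyme and a core partner moved in opposite directions with WT. DKC1, the pseudouridine synthase, had 164, 156 and 160.2 CPM in the Mut_IDR3 libraries, 197, 208 and 189 CPM in dIDR3, 109.8, 121 and 110.2 CPM in WT and 166, 154 and 163 CPM in GFP. The WT libraries were the lowest, the dIDR3 libraries the highest, and those of Mut_IDR3 and GFP overlapped. It fell with WT (log2 fold change -0.50, SE 0.06, adjusted p = 2.55e-06) and rose with dIDR3 (log2 fold change 0.30, SE 0.06, adjusted p = 9.71e-04), both against GFP. NHP2, a core protein of the particle, had 484, 486 and 477 CPM in the Mut_IDR3 libraries, 484, 411 and 453 CPM in dIDR3, 588, 580.2 and 572 CPM in WT and 433, 438 and 430.0 CPM in GFP. Its WT libraries lay above all others, and the dIDR3 libraries overlapped those of Mut_IDR3 and of GFP. It rose with WT (log2 fold change 0.42, SE 0.05, adjusted p = 7.60e-06), and this was 0.08 and no longer called with the GC trend removed. GAR1, another core protein, was not called in any of the 6 comparisons (smallest adjusted p = 0.308, for dIDR3 against GFP).

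RRP9, which binds the U3 snoRNA, had 56.9, 59.4 and 61.7 CPM in the Mut_IDR3 libraries, 70.1, 60.6 and 66.4 CPM in dIDR3, 66.8, 63.2 and 67.0 CPM in WT and 46.1, 44.2 and 46.3 CPM in GFP. All construct libraries exceeded all GFP libraries. It rose with Mut_IDR3 (log2 fold change 0.38, SE 0.07, adjusted p = 0.00151), dIDR3 (log2 fold change 0.53, SE 0.07, adjusted p = 4.02e-05) and WT (log2 fold change 0.53, SE 0.07, adjusted p = 8.34e-06), and with the GC trend removed it was called in each, at 0.25, 0.47 and 0.21. NOLC1, a chaperone of snoRNPs, rose with dIDR3 (log2 fold change 0.27, SE 0.04, adjusted p = 3.70e-04) and was lower with Mut_IDR3 than with dIDR3 (log2 fold change -0.19, SE 0.04, adjusted p = 0.013).

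**Figure D3:**
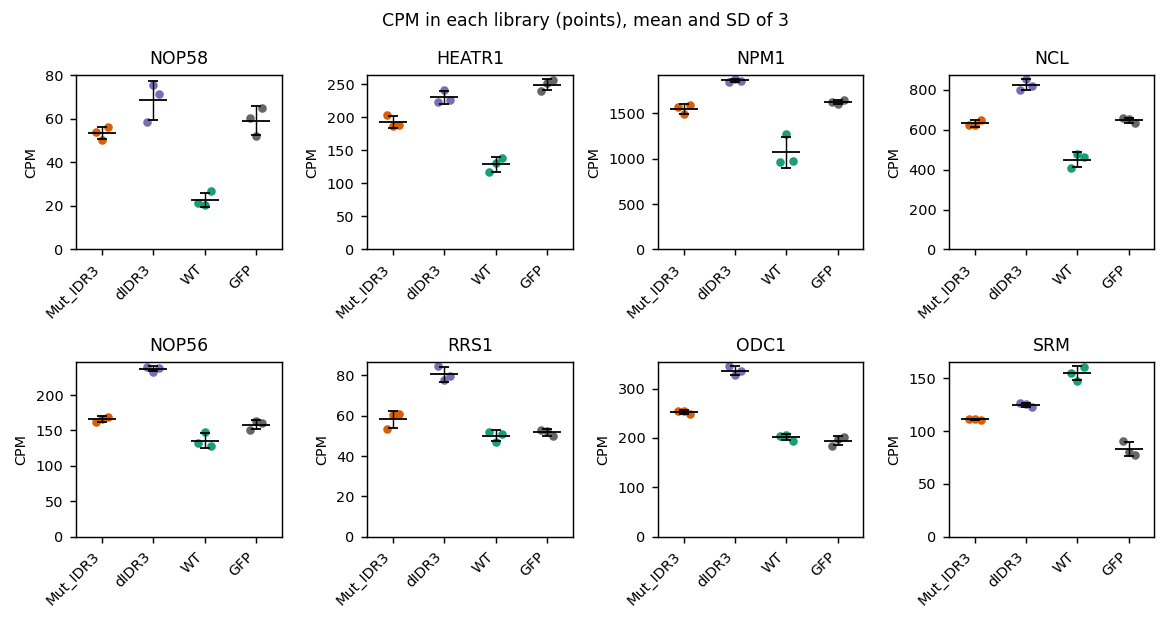
CPM (linear axis from 0) in the 12 libraries for 8 of the genes, 1 point a library, with the mean and SD of 3 as a bar; groups run Mut_IDR3, dIDR3, WT, GFP. NOP58, HEATR1, NPM1 and NCL are lowest in WT, NOP56, RRS1 and ODC1 are highest in dIDR3 with WT close to GFP or below it, and SRM is highest in WT and lowest in GFP.

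The RNA-modifying enzymes all rose with dIDR3 against GFP (3 of 3, with 15.6% of all genes). NAT10, which acetylates cytidines of small-subunit ribosomal RNA and has CACGTG at -15, had 164, 178 and 164 CPM in the Mut_IDR3 libraries, 206, 209.6 and 196 CPM in dIDR3, 150.1, 135 and 144 CPM in WT and 146, 135 and 146 CPM in GFP. Its dIDR3 libraries were the highest, its Mut_IDR3 libraries came next, and those of WT and GFP overlapped. Against GFP it rose with Mut_IDR3 (log2 fold change 0.24, SE 0.06, adjusted p = 0.00825) and with dIDR3 (log2 fold change 0.52, SE 0.06, adjusted p = 1.29e-05). The Mut_IDR3 call was lost without Mut_IDR3 replicate 2 or GFP replicate 2, and with the GC trend removed (0.13). NOP2, a methyltransferase of large-subunit ribosomal RNA, had 139, 151 and 150.2 CPM in the Mut_IDR3 libraries, 175, 192 and 182 CPM in dIDR3, 158, 155 and 162 CPM in WT and 143, 138 and 145 CPM in GFP. It rose with dIDR3 (log2 fold change 0.36, SE 0.05, adjusted p = 1.20e-04) and was lower with Mut_IDR3 than with dIDR3 (log2 fold change -0.32, SE 0.05, adjusted p = 0.00141), with no overlap between those groups. Its WT value against GFP, log2 fold change 0.16, SE 0.05, adjusted p = 0.0179, was -0.14 with the GC trend removed. PUS7, a pseudouridine synthase, had 31.1, 26.1 and 29.6 CPM in the Mut_IDR3 libraries, 34.0, 35.0 and 36.2 CPM in dIDR3, 14.9, 21.2 and 16.5 CPM in WT and 27.5, 26.9 and 29.2 CPM in GFP. Every WT library was below every other library, and it was higher than in WT with dIDR3 (log2 fold change 1.00, SE 0.11, adjusted p = 3.18e-06) and with Mut_IDR3 (log2 fold change 0.72, SE 0.11, adjusted p = 1.07e-04).

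Of the small-subunit factors, 6 of 11 were called lower with WT than with GFP (27.1% of all genes were) and 3 higher (27.7% of all), and the median was -0.60, or -0.28 with the GC trend removed. With dIDR3, 6 rose (15.6% of all) and the other 5 were not called (median 0.23). With Mut_IDR3, 2 rose (11.2% of all) and 3 fell (9.85% of all). HEATR1, UTP15, WDR43, WDR75 and UTP4 belong to the part of the small-subunit processome that is known to join the precursor early. HEATR1 (chromosome 1, 236549005 to 236604504) had 204, 187 and 188 CPM in the Mut_IDR3 libraries, 224, 242 and 226 CPM in dIDR3, 117, 130.3 and 139 CPM in WT and 240.0, 252 and 256 CPM in GFP. The WT libraries lay far below the rest, the Mut_IDR3 libraries below those of dIDR3 and GFP, and dIDR3 overlapped GFP. It fell with WT (log2 fold change -0.95, SE 0.06, adjusted p = 1.53e-08) and with Mut_IDR3 (log2 fold change -0.37, SE 0.06, adjusted p = 0.0013), and its value for dIDR3 was log2 fold change -0.11, SE 0.06, adjusted p = 0.191. Without the GC trend its WT value was -0.58 and its Mut_IDR3 value -0.24, both still called.

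Against GFP, WDR75 had log2 fold changes of -0.49 with Mut_IDR3 and -0.92 with WT, both called, and of -0.14 with dIDR3, not called. UTP15 stood at -0.35 with Mut_IDR3 and -0.87 with WT, both called, and at 0.09 with dIDR3, not called. Once the GC trend was removed, WDR75 was at -0.23 with Mut_IDR3 and -0.28 with WT, both called, and UTP15 at -0.12 with Mut_IDR3, not called, and -0.29 with WT, called. WDR43, with CACGTG at +4, had 71.1, 64.2 and 71.0 CPM in the Mut_IDR3 libraries, 87.1, 97.0 and 86.2 CPM in dIDR3, 40.1, 48.5 and 47.4 CPM in WT and 76.2, 81.7 and 73.2 CPM in GFP. Its WT libraries were the lowest and its dIDR3 libraries the highest, and it fell with WT (log2 fold change -0.76, SE 0.08, adjusted p = 1.51e-06) and was higher with dIDR3 than with WT (log2 fold change 0.99, SE 0.08, adjusted p = 1.37e-07). Removal of the GC trend left -0.30 and 0.62, both called. UTP4 differed from these partners: it was not called with WT (log2 fold change -0.05, SE 0.06, adjusted p = 0.484) and rose with dIDR3 (log2 fold change 0.41, SE 0.06, adjusted p = 8.23e-05).

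WDR3, of another processome subcomplex, had 167, 166 and 167 CPM in the Mut_IDR3 libraries, 193, 196 and 185 CPM in dIDR3, 118, 116 and 109.7 CPM in WT and 173, 171 and 178 CPM in GFP. Its WT libraries were the lowest, its dIDR3 libraries the highest, and the spread within each group was small. It fell with WT (log2 fold change -0.60, SE 0.05, adjusted p = 6.84e-08), which was -0.07 and no longer called with the GC trend removed, and it was higher with dIDR3 than with WT (log2 fold change 0.74, SE 0.05, adjusted p = 9.22e-09), the lowest adjusted p of the 48 in that comparison, at 0.33 and called with the GC trend removed. UTP20, with CACGTG at -10, fell with WT (log2 fold change -1.05, SE 0.12, adjusted p = 2.25e-06) and was higher than in WT with dIDR3 (log2 fold change 1.35, SE 0.12, adjusted p = 2.29e-07). NOP14, RRP12 and BYSL, all needed for small-subunit maturation, rose with dIDR3, by 0.56, 0.43 and 0.35. NOB1, the endonuclease that trims the small-subunit ribosomal RNA, had 181, 188 and 188 CPM in the Mut_IDR3 libraries, 209, 187 and 194 CPM in dIDR3, 212, 214 and 202 CPM in WT and 192, 192 and 182 CPM in GFP. Its groups lay close together, with the highest mean in WT, and it was lower with Mut_IDR3 than with WT (log2 fold change -0.17, SE 0.05, adjusted p = 0.0133), which was -0.05 and not called with the GC trend removed.

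**Figure D4:**
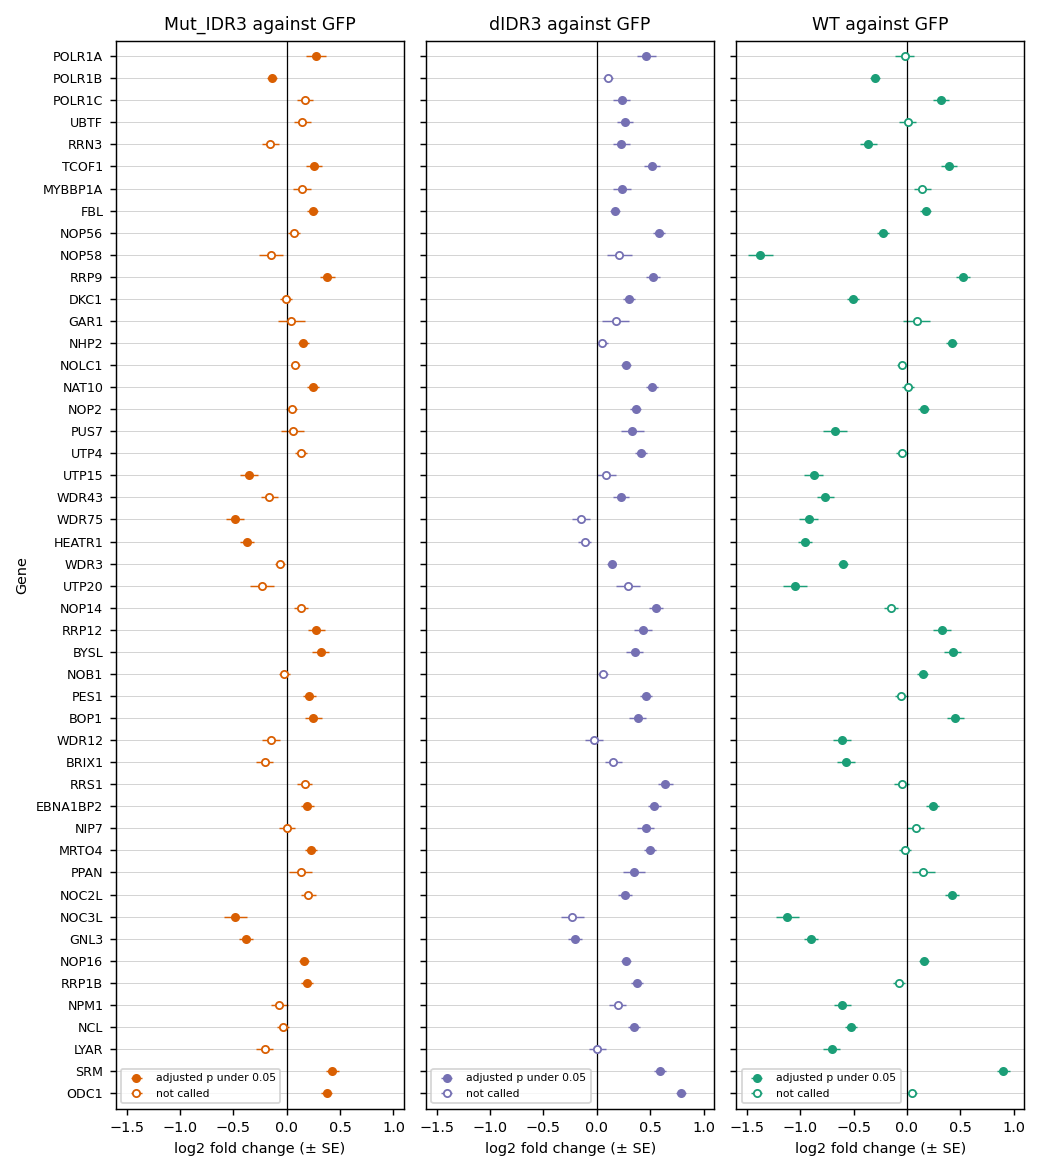
Log2 fold change against GFP (points, bars ± SE) of each of the 48 genes for Mut_IDR3, dIDR3 and WT, in the order of their roles; filled points passed an adjusted p under 0.05 in edgeR and open points did not. For dIDR3, 43 of 48 points lie above 0; for WT the points run from -1.37 (NOP58) to 0.90 (SRM).

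Of the large-subunit factors, 10 of 14 rose with dIDR3 against GFP (15.6% of all genes did) and 1 fell (13.4% of all), with a median of 0.36. With WT 4 were higher and 4 lower, near the shares of all genes (27.7% and 27.1%). PES1, BOP1 and WDR12 form 1 complex and differed with WT: BOP1 rose (log2 fold change 0.45, SE 0.08, adjusted p = 1.76e-04), WDR12 fell (log2 fold change -0.61, SE 0.09, adjusted p = 2.61e-05) and PES1 was not called (log2 fold change -0.05, SE 0.06, adjusted p = 0.474). Without the GC trend BOP1 was at 0.12 and PES1 at -0.39, both called, and WDR12 at -0.13, not called. With dIDR3, PES1 and BOP1 rose, by 0.46 and 0.38, and WDR12 was not called (-0.02). NOC2L and NOC3L, relatives in pre-ribosome transport, diverged too. NOC3L, with CACGTG at +20, had 39.6, 41.4 and 41.3 CPM in the Mut_IDR3 libraries, 44.8, 48.6 and 52.3 CPM in dIDR3, 22.1, 24.7 and 31.6 CPM in WT and 58.3, 54.4 and 58.0 CPM in GFP. The order was WT, Mut_IDR3, dIDR3 and GFP from lowest to highest, with no overlap. It fell with Mut_IDR3 (log2 fold change -0.48, SE 0.11, adjusted p = 0.00611), which was -0.22 and not called with the GC trend removed, and with WT (log2 fold change -1.12, SE 0.11, adjusted p = 6.21e-07), which was -0.48 and still called with the trend removed. NOC2L rose with WT (log2 fold change 0.42, SE 0.07, adjusted p = 9.94e-05), which was 0.07 and not called with the GC trend removed.

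RRS1, which helps to bring the 5S particle into the large subunit, had 53.2, 60.5 and 60.9 CPM in the Mut_IDR3 libraries, 84.8, 77.6 and 79.5 CPM in dIDR3, 52.1, 47.1 and 51.0 CPM in WT and 53.0, 52.5 and 49.9 CPM in GFP. All dIDR3 libraries exceeded all others, and those of WT and GFP overlapped. Its rise with dIDR3 was a log2 fold change of 0.64 (SE 0.07, with adjusted p = 1.23e-05), and Mut_IDR3 was lower than dIDR3 by a log2 fold change of -0.47 (SE 0.07, with adjusted p = 7.93e-04). EBNA1BP2, MRTO4, NIP7 and RRP1B rose with dIDR3 as well, by 0.54, 0.50, 0.46 and 0.38, and each was lower with Mut_IDR3 than with dIDR3. GNL3, nucleostemin, had 99.2, 91.0 and 102 CPM in the Mut_IDR3 libraries, 109, 114 and 106 CPM in dIDR3, 63.8, 73.3 and 66.2 CPM in WT and 131, 118 and 130.3 CPM in GFP. Its WT libraries were the lowest and its GFP libraries the highest, with no overlap between any of the groups. It fell with Mut_IDR3 (log2 fold change -0.38, SE 0.07, adjusted p = 0.00157), with dIDR3 (log2 fold change -0.20, SE 0.07, adjusted p = 0.0317) and with WT (log2 fold change -0.90, SE 0.07, adjusted p = 4.72e-08), and with the GC trend removed the values were -0.24, -0.16 and -0.52. BRIX1 fell with WT (log2 fold change -0.57, SE 0.08, adjusted p = 3.44e-05), but was at 0.04 and not called with the GC trend removed. NOP16 rose in all 3 construct groups, by 0.16 with Mut_IDR3, 0.28 with dIDR3 and 0.16 with WT, and with the GC trend removed these were 0.03, 0.17 and -0.09, of which the dIDR3 value was called. PPAN, whose reads may mix with the read-through transcript it forms with its neighbour P2RY11, rose with dIDR3 (log2 fold change 0.35, SE 0.11, adjusted p = 0.0231).

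The abundant nucleolar proteins all fell with WT against GFP (3 of 3, with 27.1% of all genes). NPM1, nucleophosmin, a histone and ribosome chaperone with many processed pseudogenes that may share its reads, had 1565, 1488 and 1590.0 CPM in the Mut_IDR3 libraries, 1846, 1876 and 1857 CPM in dIDR3, 962, 1266 and 977 CPM in WT and 1626, 1605 and 1644 CPM in GFP. WT replicate 2 stood apart from the other WT libraries, yet all 3 were below every other library. It fell with WT (log2 fold change -0.60, SE 0.08, adjusted p = 1.22e-05), at -0.35 and called with the GC trend removed, and the dIDR3 value of log2 fold change 0.19, SE 0.08, adjusted p = 0.0766 missed the threshold although no library overlapped. With the GC trend removed, the dIDR3 value of NPM1 was 0.23 and called. NCL, nucleolin, which binds nascent ribosomal RNA (chromosome 2, 231453531 to 231483641), had 622, 622 and 650.1 CPM in the Mut_IDR3 libraries, 801, 854 and 818 CPM in dIDR3, 409.8, 479 and 462 CPM in WT and 657, 652 and 633 CPM in GFP. The dIDR3 libraries were the highest, the WT libraries the lowest, and the Mut_IDR3 libraries overlapped those of GFP. NCL fell with WT (log2 fold change -0.52, SE 0.06, adjusted p = 1.51e-06), rose with dIDR3 (log2 fold change 0.35, SE 0.06, adjusted p = 2.93e-04) and was lower with Mut_IDR3 than with dIDR3 (log2 fold change -0.38, SE 0.06, adjusted p = 6.01e-04). LYAR had 43.0, 36.9 and 40.9 CPM in the Mut_IDR3 libraries, 43.6, 50.5 and 45.2 CPM in dIDR3, 27.1, 29.9 and 28.3 CPM in WT and 46.9, 44.7 and 47.6 CPM in GFP. Its WT libraries were below all others and its dIDR3 and GFP libraries overlapped, and the fall with WT was a log2 fold change of -0.71 (SE 0.08, with adjusted p = 3.57e-06), or -0.46 and called with the GC trend removed.

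Both polyamine enzymes (2 of 2) rose with Mut_IDR3 (11.2% of all tested genes did) and with dIDR3 (15.6% of all), and SRM rose with WT too (27.7% of all). ODC1 (chromosome 2, 10439968 to 10448504), the rate-limiting enzyme of polyamine synthesis, had 254, 255 and 248 CPM in the Mut_IDR3 libraries, 346, 327 and 337 CPM in dIDR3, 204, 207 and 194 CPM in WT and 184, 198 and 202 CPM in GFP. The dIDR3 libraries were the highest, those of Mut_IDR3 came next, and WT overlapped GFP. Its rise with dIDR3, a log2 fold change of 0.79 (SE 0.05, with adjusted p = 6.43e-08), was the largest of the 48 against GFP in that group, and Mut_IDR3 lay a log2 fold change of -0.41 (SE 0.05, with adjusted p = 1.38e-04) from dIDR3. The value with WT was log2 fold change 0.05, SE 0.05, adjusted p = 0.422, and -0.16 with the GC trend removed. SRM (chromosome 1, 11054584 to 11060024) had 112, 111 and 111 CPM in the Mut_IDR3 libraries, 126, 125 and 122 CPM in dIDR3, 155, 148 and 161 CPM in WT and 90.2, 80.3 and 77.5 CPM in GFP. Its order was WT, dIDR3, Mut_IDR3 and GFP from highest to lowest, with no overlap. It rose with Mut_IDR3 (log2 fold change 0.43, SE 0.06, adjusted p = 2.92e-04), dIDR3 (log2 fold change 0.59, SE 0.06, adjusted p = 4.34e-06) and WT (log2 fold change 0.90, SE 0.06, adjusted p = 1.16e-08), and was lower than in WT with dIDR3 (log2 fold change -0.31, SE 0.06, adjusted p = 3.33e-04), a difference of -0.05 with the GC trend removed, where its rise with WT against GFP was 0.58.

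Per kilobase of the longest transcript, levels in the GFP group ran from 924 ± 11.1 CPM per kb for NPM1, 501 ± 4.39 CPM per kb for NHP2 and 160.5 ± 3.17 CPM per kb for NCL down to 3.93 ± 0.395 CPM per kb for UTP20. NCL and NOP16, at 160.5 ± 3.17 CPM per kb and 158 ± 5.72 CPM per kb, differed by less than the SD of NOP16. HEATR1, NOP58 and RRP9 lay next to each other at 29.5 ± 0.985 CPM per kb, 28.9 ± 3.23 CPM per kb and 28.9 ± 0.716 CPM per kb, less than 1 SD of NOP58 apart.

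The direction in WT went with the base composition of the genes. GC content of the longest transcript ran from 37.7% to 65.2% (median 49.9%) over the 48. Its Spearman correlation with the log2 fold change across the 48 genes was 0.85 for WT against GFP, against 0.51 over the 12724 tested genes with a GC value. It was 0.82 for Mut_IDR3 against GFP (0.43 over all) and 0.60 for dIDR3 against GFP (0.19 over all). With the GC trend of each library removed, part of this relation remained across the 48 genes. The correlations were then 0.40 for WT, 0.38 for Mut_IDR3 and 0.32 for dIDR3, each against GFP. These are descriptions across genes of the same libraries, which are not independent replicates. All 16 genes below 45% GC were called lower with WT (58.7% of all such genes were), with a median of -0.74. Of the 13 genes at 55% GC or more, 9 were called higher with WT (50.7% of all such genes). With the GC trend removed, 3 of these 13 were higher and 5 lower (23.8% and 24.2% of all genes of any GC content).

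With dIDR3, higher calls stood at all GC contents. Among counts as deposited, 4 of the 16 genes below 45% GC were called higher than with GFP, 17 of 19 at 45 to 55% and 12 of 13 at 55% or more, against 8.35%, 24.3% and 21.5% of all genes in those ranges. With the trend of each library on GC content removed, the count of higher genes was 36 (15.4% of all), that of lower genes 1 (16.1% of all) and the median 0.27, and 32 of the 33 calls held. Removal left 4 of the 14 higher and 15 of the 19 lower calls with WT against GFP, and 3 of the 16 higher calls with Mut_IDR3. Against WT, after removal, 41 genes were higher and 2 lower with dIDR3 (23.9% and 25.0% of all), and 27 were higher and 2 lower with Mut_IDR3 (20.2% and 20.9% of all). Whether the GC trend arose in the cells or in library preparation was not tested.

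**Figure D5:**
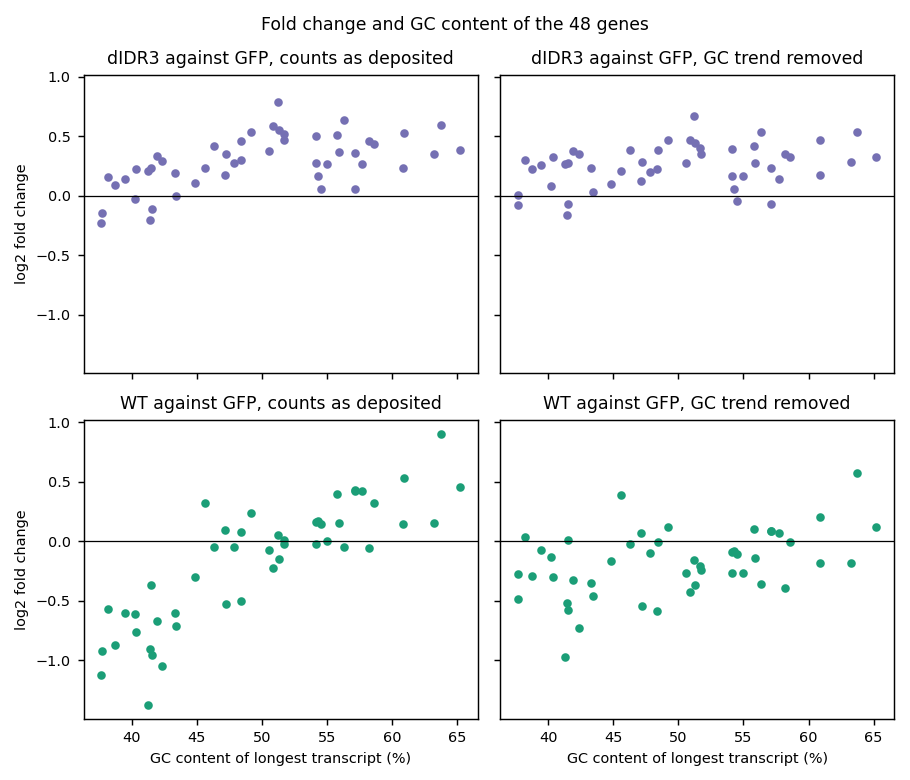
GC content of the longest transcript (%) against log2 fold change over GFP for the 48 genes, with dIDR3 above and WT below; the left panels use the counts as deposited and the right panels the fit with the GC trend of each library removed. In WT the points climb with GC content on the left (Spearman 0.85) and are flatter on the right (0.40); in dIDR3 most points lie above 0 in both.

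Other genes of the same pathway, outside the 48, were counted in the same fit. Against GFP, the shares of all tested genes to read these counts by are 11.2% higher and 9.85% lower with Mut_IDR3, 15.6% and 13.4% with dIDR3, and 27.7% and 27.1% with WT. Of 50 other small-subunit factors, 12 rose and 7 fell with Mut_IDR3, 22 rose and 0 fell with dIDR3 (median 0.17), and 16 rose and 23 fell with WT, each against GFP by edgeR. At an unadjusted p under 0.05, and in DESeq2, 0 of the 50 were lower with dIDR3 too. DCAF13 fell with WT (log2 fold change -0.83, SE 0.06, adjusted p = 5.09e-08), as did NOL11 (log2 fold change -0.79, SE 0.07, adjusted p = 3.28e-07), and both were higher with dIDR3 than with WT, by 0.94 and 1.04. UTP14A fell with WT (log2 fold change -0.70, SE 0.08, adjusted p = 2.92e-06) and rose with dIDR3 (log2 fold change 0.36, SE 0.08, adjusted p = 0.00331), and TSR3 rose with WT (log2 fold change 0.58, SE 0.06, adjusted p = 2.18e-06). After removal of the GC trend the WT values were -0.19 for DCAF13, -0.37 for NOL11 and 0.26 for TSR3, all called. Of the 50, 9 were then higher and 18 lower with WT (23.8% and 24.2% of all genes), and 25 were higher with dIDR3 (15.4% of all). Of 50 other large-subunit factors, 9 rose and 6 fell with Mut_IDR3, 24 rose and 3 fell with dIDR3 (median 0.12), and 12 rose and 25 fell with WT. The helicases DDX18 and DDX21 fell with WT, by 1.20 and 1.14 on the log2 scale, and RSL24D1 by 0.89, while ZNF622 rose (log2 fold change 0.69, SE 0.06, adjusted p = 2.11e-07). Removal of the trend left -0.75, -0.72, -0.24 and 0.46, all called, and 6 of the 50 were higher and 26 lower with WT (23.8% and 24.2% of all). Lower with Mut_IDR3 than with dIDR3 were 15 of the 50 small-subunit and 11 of the 50 large-subunit factors (5.24% of all genes), with 1 higher in each (5.54% of all).

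Further lists cover the rest of the machinery, whose counts are to be read by the same shares of all genes. Of 16 other genes of RNA polymerase I transcription, 4 rose and 1 fell with dIDR3, and 6 rose and 5 fell with WT. Among these POLR1G rose with Mut_IDR3, dIDR3 and WT, by 0.55, 0.95 and 0.58, POLR1F fell with WT (log2 fold change -1.10, SE 0.12, adjusted p = 2.79e-06), and POLR1H and POLR2E rose with WT, by 0.52 and 0.36. Without the GC trend POLR1G was at 0.32 and POLR1F at -0.46 in WT, both called, and POLR2E at 0.04, not called. Of 14 RNA exosome genes, 3 rose and 2 fell with dIDR3, and 3 rose and 6 fell with WT, with MTREX at -1.32, DIS3 at -1.26, EXOSC9 at -0.80 and EXOSC4 at 0.77 in WT, all called. Removal of the trend left -0.80, -0.71, -0.16 and 0.43, of which EXOSC9 was not called. Of the 14, 6 were then higher and 1 lower with dIDR3 (15.4% and 16.1% of all genes), and 6 higher and 4 lower with WT (23.8% and 24.2% of all). Of 12 snoRNP assembly genes, edgeR and DESeq2 called 0 with dIDR3, with 2 higher at an unadjusted p under 0.05 in edgeR, and 3 rose and 6 fell with WT, where RPAP3, TGS1 and PHAX stood at -1.08, -0.95 and -0.68 and RUVBL2 at 0.42. Without the GC trend RPAP3 was at -0.45 and RUVBL2 at 0.11, both called. Of the 12, 3 were then higher with dIDR3 (15.4% of all genes), and 4 higher and 4 lower with WT (23.8% and 24.2% of all). SNHG32, a host of snoRNAs and the 1 such gene of 17 found in the table, rose with WT (log2 fold change 0.88, SE 0.08, adjusted p = 3.62e-07).

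MYC was highest with WT. That group had the lowest summed level of the 48 genes, which rested on the falls of NPM1 and NCL. MYC RNA was 19.9 ± 0.547 CPM with Mut_IDR3, 23.0 ± 1.18 CPM with dIDR3, 39.3 ± 1.22 CPM with WT and 21.8 ± 1.43 CPM with GFP. It was higher with WT than with GFP (log2 fold change 0.85, SE 0.08, adjusted p = 3.10e-07) and not called with dIDR3 (log2 fold change 0.08, SE 0.08, adjusted p = 0.477) or Mut_IDR3 (log2 fold change -0.12, SE 0.08, adjusted p = 0.269). With the GC trend removed, MYC was at 0.61 with WT and -0.26 with Mut_IDR3, both called, and at -0.03 with dIDR3, not called. MXD1, which competes with MYC for MAX, was 11.9 ± 1.18 CPM with Mut_IDR3, 14.4 ± 0.955 CPM with dIDR3, 49.3 ± 0.801 CPM with WT and 13.6 ± 0.852 CPM with GFP. Its difference between WT and GFP was a log2 fold change of 1.86 (SE 0.09, with adjusted p = 5.83e-10). MGA fell with WT (log2 fold change -1.01, SE 0.10, adjusted p = 9.87e-07) and MLX rose (log2 fold change 0.41, SE 0.07, adjusted p = 1.16e-04), both known to bind E-boxes with partners, and with the GC trend removed these were -0.66 and 0.19, both called. Of the 10 tested genes of this network, 1 rose and 1 fell with Mut_IDR3 against GFP (11.2% and 9.85% of all genes). With dIDR3, 1 rose and 3 fell (15.6% and 13.4% of all), and with WT 4 rose and 2 fell (27.7% and 27.1% of all). Among the 41 genes with a promoter window, 15 of the 20 with CACGTG and 12 of the 21 without were called higher with dIDR3 than with GFP (15.6% of all genes; medians 0.36 and 0.23), and 6 of the 20 with and 12 of the 21 without were lower with WT than with GFP (27.1% of all). The difference between genes with and without the letters was not tested.

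Of 9 polyamine genes other than ODC1 and SRM, 6 rose and 2 fell with WT against GFP (27.7% and 27.1% of all genes), 2 rose and 1 fell with dIDR3 (15.6% and 13.4% of all), and 2 rose and 2 fell with Mut_IDR3 (11.2% and 9.85% of all). The antizymes OAZ1 and OAZ2, which send ODC1 protein to the proteasome, rose with WT, by 0.35 and 0.53, and with Mut_IDR3, by 0.30 and 0.36. With dIDR3, OAZ1 rose by 0.13 and OAZ2 stood at 0.07, not called. After removal of the GC trend OAZ1 was at 0.17 with Mut_IDR3, called, and at 0.07 with dIDR3 and 0.03 with WT, not called. OAZ2 was then at 0.30 with Mut_IDR3 and 0.45 with WT, both called, and at -0.01 with dIDR3, not called. SMOX, spermine oxidase, rose with WT (log2 fold change 0.83, SE 0.11, adjusted p = 1.28e-05), at 0.50 and called with the GC trend removed, and AMD1, which supplies the aminopropyl groups for spermidine, fell with WT (log2 fold change -0.75, SE 0.08, adjusted p = 1.26e-06) and with Mut_IDR3 (log2 fold change -0.34, SE 0.08, adjusted p = 0.00738), which were -0.11 and -0.07 and not called with the GC trend removed. AMD1 was not called with dIDR3 (0.12, or 0.28 and called with the trend removed) and was lower with Mut_IDR3 than with dIDR3 (log2 fold change -0.46, SE 0.08, adjusted p = 0.00179).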

How the data were processed

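Gene counts were used as the authors deposited them, 1 table for all 12 libraries. RNA came from an RNeasy kit and libraries from a SMARTer mRNA kit, per the labels' protocols. Per the submitters' processing notes, the tools were Trim Galore, HISAT2 and StringTie and the genome GRCh38/hg38. Which program counted the reads, with what annotation and strandedness, is not given in the sources used here, so overlapping genes and near-identical copies are uncertain.

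Of 24302 features, 4328 were entries named NewGene, which have no GC value here, and 4118 features had no counts. The 14792 that passed filterByExpr were scaled by TMM and fitted over all 4 groups in edgeR 4.0.16 (R 4.3.3) with its quasi-likelihood F test (8 residual degrees of freedom). Within each comparison p-values were adjusted over all tested features by Benjamini-Hochberg, and an adjusted p under 0.05 counted as called. For 1 gene, exact permutation of 3 against 3 libraries gives p = 0.1 at best. Code was tested on simulated data. The log2 ratios by library used a pseudocount of 0.5 CPM.

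The 48 genes, their roles, the other lists and the tests were chosen with earlier results of these data known. Values in every library are given for genes among the 3 lowest adjusted p in either direction for WT against GFP or an altered form against WT, and up to 3 per role by adjusted p. Of each other list, up to 4 genes by adjusted p in WT against GFP are named. Genes for promoter sequences were chosen after their values were seen. Gene coordinates, GC content and length are from GENCODE v29 (GRCh38, 1-based). 159 list genes were matched by symbol and 4 by identifier.

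The alternatives tried were scaling by median ratios or upper quartiles, testing without a filter, DESeq2 1.42.0, the replicate number as a block, offsets that remove the GC trend of each library (20 bins of genes whose mean reached 1 CPM), the block and the offsets together, and leaving out each library. Of the 14792 tested features, called genes above, 12724 had a GC value. The others got no offset for the GC trend and stay in the shares of all genes.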

Additional observations from a re-analysis of the deposited data

How the results depend on the processing

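Scaling by median ratios or the upper quartile, no filter, and DESeq2 kept every count of called genes within 1.5 times its value, and no called gene changed direction under them or when a single library was left out. Removing the GC trend moved 5 counts with or without the replicate block: genes higher with WT than GFP became 4, higher with Mut_IDR3 than GFP 3, and lower with Mut_IDR3 than WT 2, and with the block added, lower with Mut_IDR3 than GFP 3 and lower with dIDR3 than WT 1. The cause of the GC trend was not tested.

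Leaving out 1 library at a time gave, for Mut_IDR3 against GFP, 4 to 17 genes higher and 5 to 6 lower, for dIDR3 against GFP 24 to 35 and 0 to 2, and for WT against GFP 13 to 16 and 19 to 20. It gave 24 to 28 higher and 3 to 6 lower for Mut_IDR3 against WT, 33 to 37 and 2 to 4 for dIDR3 against WT, and 0 to 0 and 17 to 29 for Mut_IDR3 against dIDR3.

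The replicate numbers did not pair the libraries: same-numbered libraries deviated from their group means with correlations of -0.0682 to 0.0762 over 18 pairs, and 3 of 12 libraries matched best a library of their own number. With the number as a replicate block, genes called higher and lower were 14 and 5 for Mut_IDR3 against GFP, 29 and 0 for dIDR3 against GFP, 14 and 19 for WT against GFP, 27 and 4 for Mut_IDR3 against WT, 33 and 2 for dIDR3 against WT and 0 and 24 for Mut_IDR3 against dIDR3.

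With the GC trend removed, with or without the replicate block, these log2 fold changes turned, counting only values called before or after the removal. Values that turned but were called neither before nor after it are left out. For Mut_IDR3 against GFP, NHP2 was -0.01. For WT against GFP, UBTF was -0.27, RRN3 0.01, MYBBP1A -0.18, FBL -0.08, NAT10 -0.21, NOP2 -0.14, RRP12 -0.01, NOB1 -0.11, BRIX1 0.04, PPAN -0.19, NOP16 -0.09 and ODC1 -0.16. For Mut_IDR3 against WT, RRN3 was -0.03, MYBBP1A 0.19 and BOP1 0.0, with RRP12 at 0.13 without the block and PPAN at 0.18 with it. For dIDR3 against WT, FBL was 0.14 and BOP1 0.21. Depth was 30.7 M to 43.5 M counts a library and did not keep any of the 48 genes from the test. Whether depth or the spread between 3 libraries a group limits the calls was not tested.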
